A study of Saccharomyces cerevisiae with 16 samples.

Results

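Levels of 10 genes of the yeast general stress response and of stationary phase, out of 6717 genes in the count table, were followed across strain, medium and MCHM treatment: SPG1, SPG4, GPG1, HSP12, CTT1, DDR2, SIP18, GRE1, XBP1 and PHM7. They were chosen from known stress and stationary-phase genes with earlier results of these data known, and SPG4 was chosen by its difference between petite and grande yeast in untreated YM cultures. The values of that comparison, and of differences built on it, are therefore given as a description with no p. Other comparisons that share its libraries are not independent of the choice.

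Petite yeast were compared with grande yeast, YM with YPD, and MCHM treatment with no treatment, giving 8 groups of 2 libraries each. Both strains are S96, a MATa lys5 laboratory strain, so every library carries the lys5 allele. The petite derivative was made with ethidium bromide, which removes the mitochondrial genome, and cannot respire, whereas grande yeast keep a working mitochondrial genome; whether the petite strain is 1 clone is not given in the sources used here. YPD is a rich medium, and YM is a minimal medium that was supplemented with lysine for these strains. MCHM, or 4-methylcyclohexane methanol, is an alcohol used to clean coal, and the labels give 0.055% (v:v) in the medium during a further 2.5 h of growth, although the study's text gives a shorter exposure; untreated cultures grew for the same 2.5 h without it. Each culture was divided into a treated and an untreated part, and the column names carry a culture number that both parts share: 6 and 14 for petite yeast in YM, 5 and 13 for grande yeast in YM, 2 and 10 for petite yeast in YPD, and 1 and 9 for grande yeast in YPD. In each pair of values the lower-numbered culture stands before the higher-numbered one.

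Total counts per library ran from 2015485 to 5694566 (median 3662481). All 10 genes were among the 5856 that passed the filter on low counts, SPG1 through its counts in petite yeast in YM. The 28 genes of the mitochondrial genome in the table had 0 counts in all 8 petite libraries and 0 to 12 counts together in the grande libraries. The treated grande YPD library of culture 9 had 0, so these counts do not tell it from a petite library. The untreated library of culture 5 stood apart for these genes: each of the 10 was higher there than in the untreated library of culture 13, by a median log2 ratio of 2.56, against 0.00416 over all genes tested. Untreated petite YM cultures had the same order for all 10 genes, with a median log2 ratio of 1.04 between cultures 6 and 14.

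As background, yeast cells answer many unrelated stresses with a common set of genes. The zinc-finger activators Msn2 and Msn4 enter the nucleus when protein kinase A activity is low and bind the stress response element, or STRE, upstream of these genes. When glucose runs out, cells pass the diauxic shift and later enter stationary phase, where the same activators and the factor Gis1, which binds the post-diauxic shift (PDS) motif, raise genes of heat, oxidation and desiccation tolerance. Cells growing fast on glucose keep most of these genes low.

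The upstream sequences of the genes show how differently they carry the element. The STRE was searched as AGGGG or its reverse complement CCCCT on either strand, and the PDS motif as TNAGGGAT on both strands. In the window from 250 bases before to 50 bases after the start codon, 3 of the 10 genes held an STRE, HSP12, CTT1 and DDR2, while 21.6% of 6001 yeast promoters of the same length did. In a longer window of 600 bases before the start codon, added after seeing the data, 6 of the 10 genes held at least 1, against 39.7% of 5999 promoters, the same 6 held at least 2, against 10.7%, and 5 of the 10 held at least 3, against 2.43%. HSP12 and XBP1 had 5 each, CTT1 and DDR2 had 4 each, SIP18 had 3, and PHM7 had 2. SPG1, SPG4, GPG1 and GRE1 had none of these letters in that window. A PDS motif was found for SIP18 and GRE1, and in 4.83% of all promoters. A match to these letters is a description of the sequence and does not show that a factor binds there.

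The stretches with the densest STREs are given from the R64 genome, on the coding strand of each gene, with each STRE in capitals. HSP12 spans chrVI:106806-107086 on the plus strand, CTT1 chrVII:654239-654289 on the plus strand, DDR2 chrXV:231910-232020 on the minus strand, SIP18 chrXIII:610611-610666 on the plus strand and XBP1 chrIX:177560-177730 on the minus strand. The pair of CTT1 elements and the pair of SIP18 elements lie within short stretches, whereas the 5 of HSP12 are spread over a longer one.
HSP12: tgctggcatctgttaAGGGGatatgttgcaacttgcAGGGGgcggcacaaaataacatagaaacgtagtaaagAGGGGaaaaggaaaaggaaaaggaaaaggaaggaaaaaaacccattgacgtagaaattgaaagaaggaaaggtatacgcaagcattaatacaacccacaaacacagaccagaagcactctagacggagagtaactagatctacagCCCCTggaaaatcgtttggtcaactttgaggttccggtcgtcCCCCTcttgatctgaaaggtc
CTT1: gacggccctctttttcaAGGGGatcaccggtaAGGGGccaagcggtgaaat
DDR2: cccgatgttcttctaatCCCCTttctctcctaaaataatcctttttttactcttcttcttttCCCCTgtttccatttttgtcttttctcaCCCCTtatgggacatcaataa
SIP18: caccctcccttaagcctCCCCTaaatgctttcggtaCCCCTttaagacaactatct
XBP1: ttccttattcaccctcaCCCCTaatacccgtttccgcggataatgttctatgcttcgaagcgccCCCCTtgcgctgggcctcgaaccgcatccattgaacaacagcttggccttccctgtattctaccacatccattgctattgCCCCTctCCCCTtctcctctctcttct

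**Figure D1:**
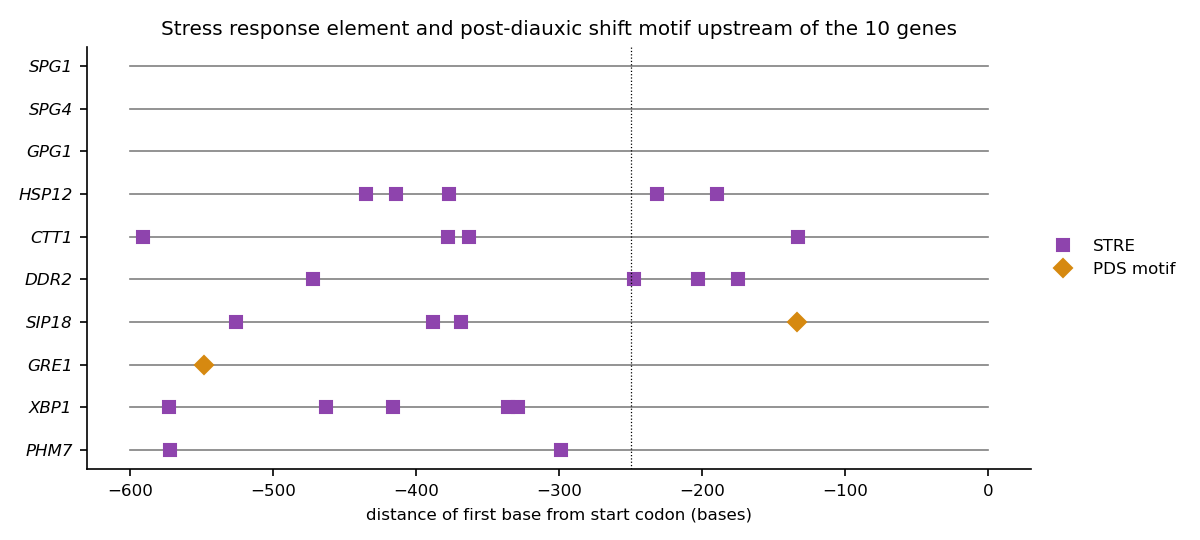
Position of STRE (squares) and PDS (diamonds) motifs in the 600 bases before the start codon of each of the 10 genes, as the distance in bases of the first base from the start codon, with a dotted line at 250 bases. HSP12 and XBP1 carry 5 STREs each, and SPG1, SPG4 and GPG1 carry neither motif.

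Levels below are CPM, the counts of a gene scaled to a fixed library total, with edgeR's trimmed mean of M values (TMM) as normalization. Where genes are set against each other, CPM is divided by the coding length in kilobases. All 10 genes have 1 coding segment and overlap no other gene of the R64 annotation, which matters because the libraries were not stranded. That annotation held 6025 of the 6717 identifiers in the count table, and overlap with the rest was not examined. An increase in CPM here cannot tell more RNA per cell apart from more cells that express the gene.

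HSP12 (YFL014W, R64 chrVI:107256-107585, plus strand) encodes a small membrane-associated protein that is a classic read-out of Msn2 and Msn4. Per kilobase it was the highest of the 10 in untreated petite yeast in YM, with a mean level of 23485 CPM per kb. Its level in petite yeast in YM was 7227 and 4308 CPM with MCHM, and 11389 and 4111 CPM without. Grande yeast in YM had 657 and 126 CPM with MCHM, and 1712 and 309 CPM without. Both petite YM groups thus lay above both grande YM groups with no overlap. Petite yeast in YPD had 321 and 156 CPM with MCHM, and 155 and 68.2 CPM without. Grande yeast in YPD had 13.5 and 7.88 CPM with MCHM, the lowest HSP12 levels of the series, and 357 and 18.1 CPM without. The range across libraries was 1445-fold.

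CTT1 (YGR088W, chrVII:654634-656322, plus strand) encodes the cytosolic catalase T, which removes hydrogen peroxide. Petite yeast in YM had 998 and 1299 CPM with MCHM, and 2237 and 1734 CPM without. Grande yeast in YM had 93.0 and 23.2 CPM with MCHM, and 252 and 39.9 CPM without. In YPD all 8 libraries lay between 13.1 and 32.8 CPM, and each pair of neighbouring groups in the order of means overlapped. CTA1, the peroxisomal catalase A, did not share this spread: its group means ran between 55.0 CPM in untreated petite YM and 27.6 CPM in grande YPD with MCHM. The coding sequences of CTT1 and CTA1 are 52.5% identical, with a longest shared run of 11 bases.

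DDR2 (YOL052C-A, chrXV:231570-231755, minus strand) encodes a small multistress protein and has the shortest coding sequence of the 10, at 186 bases. In petite yeast in YM it had 4647 and 3114 CPM with MCHM, and 5648.5 and 2279 CPM without. Grande cultures in YM had 1261.5 and 177 CPM with MCHM, and 2102 and 244 CPM without. Petite yeast in YPD had 479 and 186 CPM with MCHM, and 78.0 and 4.04 CPM without, so the treated and untreated libraries did not overlap. Grande yeast in YPD had 80.3 and 15.8 CPM with MCHM, and 179 and 16.3 CPM without. HOR7, its paralog, was flatter, with group means between 2644 CPM in untreated petite YM and 434 CPM in grande YPD with MCHM. The 2 coding sequences are 62.6% identical, with a longest shared run of 24 bases. Whether any reads were split between them was not examined.

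SIP18 (YMR175W, chrXIII:611016-611255, plus strand) and GRE1 (YPL223C, chrXVI:128632-129138, minus strand) are paralogs that encode hydrophilins, hydrophilic proteins of desiccation tolerance. SIP18 had 123 and 514 CPM with MCHM and 647 and 89.1 CPM without in petite yeast in YM. Grande yeast in YM had 3.49 and 1.75 CPM with MCHM, and 44.2 and 8.24 CPM without. In YPD no library had more than 3.28 CPM or more than 12 counts of SIP18, and 1 untreated petite library had 0 counts; the floor of 3 counts is at most 1.38 CPM in any library. GRE1 had 207 and 625 CPM with MCHM and 1843 and 1321 CPM without in petite yeast in YM. For grande yeast in YM, GRE1 had 15.1 and 11.8 CPM with MCHM, and 212 and 32.3 CPM without. In YPD, GRE1 lay between 4.99 and 18.9 CPM. The coding sequences share 32.6% of aligned bases and no run longer than 9 bases.

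SPG4 (YMR107W, chrXIII:483014-483361, plus strand) and SPG1 (YGR236C, chrVII:962530-962817, minus strand) are genes needed for survival at high temperature in stationary phase. SPG4 had 17.7 and 94.2 CPM with MCHM and 269 and 74.1 CPM without in petite yeast in YM. In grande yeast in YM it had 0.806 and 1.00 CPM with MCHM, and 6.21 and 2.31 CPM without. In YPD it had at most 2.76 CPM, or 6 counts, and 1 petite library of each treatment had 0 counts. SPG1 was near the limit of detection: its highest library, treated petite culture 14 in YM, had 10.5 CPM, or 76 counts. Treated petite culture 6 in YM had 4.97 CPM, and the untreated petite YM libraries had 4.37 and 2.38 CPM. Outside petite yeast in YM no library had more than 9 counts of SPG1, and 1 treated petite YPD library had 0.

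XBP1 (YIL101C, chrIX:175307-177250, minus strand) encodes a stress-induced transcriptional repressor. Its range across libraries was 31.2-fold, against at least 55.9-fold for the other genes apart from SPG1. Petite yeast in YM had 181 and 191 CPM with MCHM, and 333 and 195 CPM without. Grande yeast in YM had 84.1 and 38.0 CPM with MCHM, and 279 and 43.5 CPM without. In YPD its level lay between 10.7 and 118 CPM, and the 4 YPD groups overlapped one another along the order of means. PHM7 (YOL084W, chrXV:162356-165331, plus strand) encodes a membrane protein of unknown function. It had 53.4 and 104 CPM with MCHM and 428 and 113 CPM without in petite yeast in YM. Grande YM cultures had 8.87 and 6.0 CPM with MCHM, and 391.6 and 19.5 CPM without. In YPD it lay between 4.99 and 16.1 CPM.

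GPG1 (YGL121C, chrVII:280777-281157, minus strand) encodes a proposed gamma subunit of the glucose-sensing G protein and had an order of its own. Its highest group mean was in petite YM with MCHM, 204 ± 3.19 CPM (SD, n = 2), followed by grande YM with MCHM, 121 ± 140 CPM, and petite YPD with MCHM, 109 ± 4.87 CPM. Untreated petite YM followed with 106 and 78.7 CPM, and untreated grande YM with 68.7 and 28.4 CPM. Grande yeast in YPD had 20.8 and 13.2 CPM with MCHM, and 17.0 and 3.94 CPM without. Untreated petite yeast in YPD came last with 11.1 and 4.04 CPM. The SD of treated grande yeast in YM came from 220 CPM in culture 5 and 22.5 CPM in culture 13.

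For 8 of the 10 genes, all but SPG1 and GPG1, the highest group mean was in untreated petite YM, whereas SPG1 and GPG1 were highest in treated petite YM. Treated and untreated petite YM overlapped for SPG4, HSP12, DDR2 and SIP18, and did not overlap for the other 6. On the log2 scale over the 8 group means, the correlation of a gene with the mean of the other 9 was between 0.726 for GPG1 and 0.984 for CTT1. SPG1 was second lowest at 0.836. These are descriptions over 8 groups that share the same libraries.

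**Figure D2:**
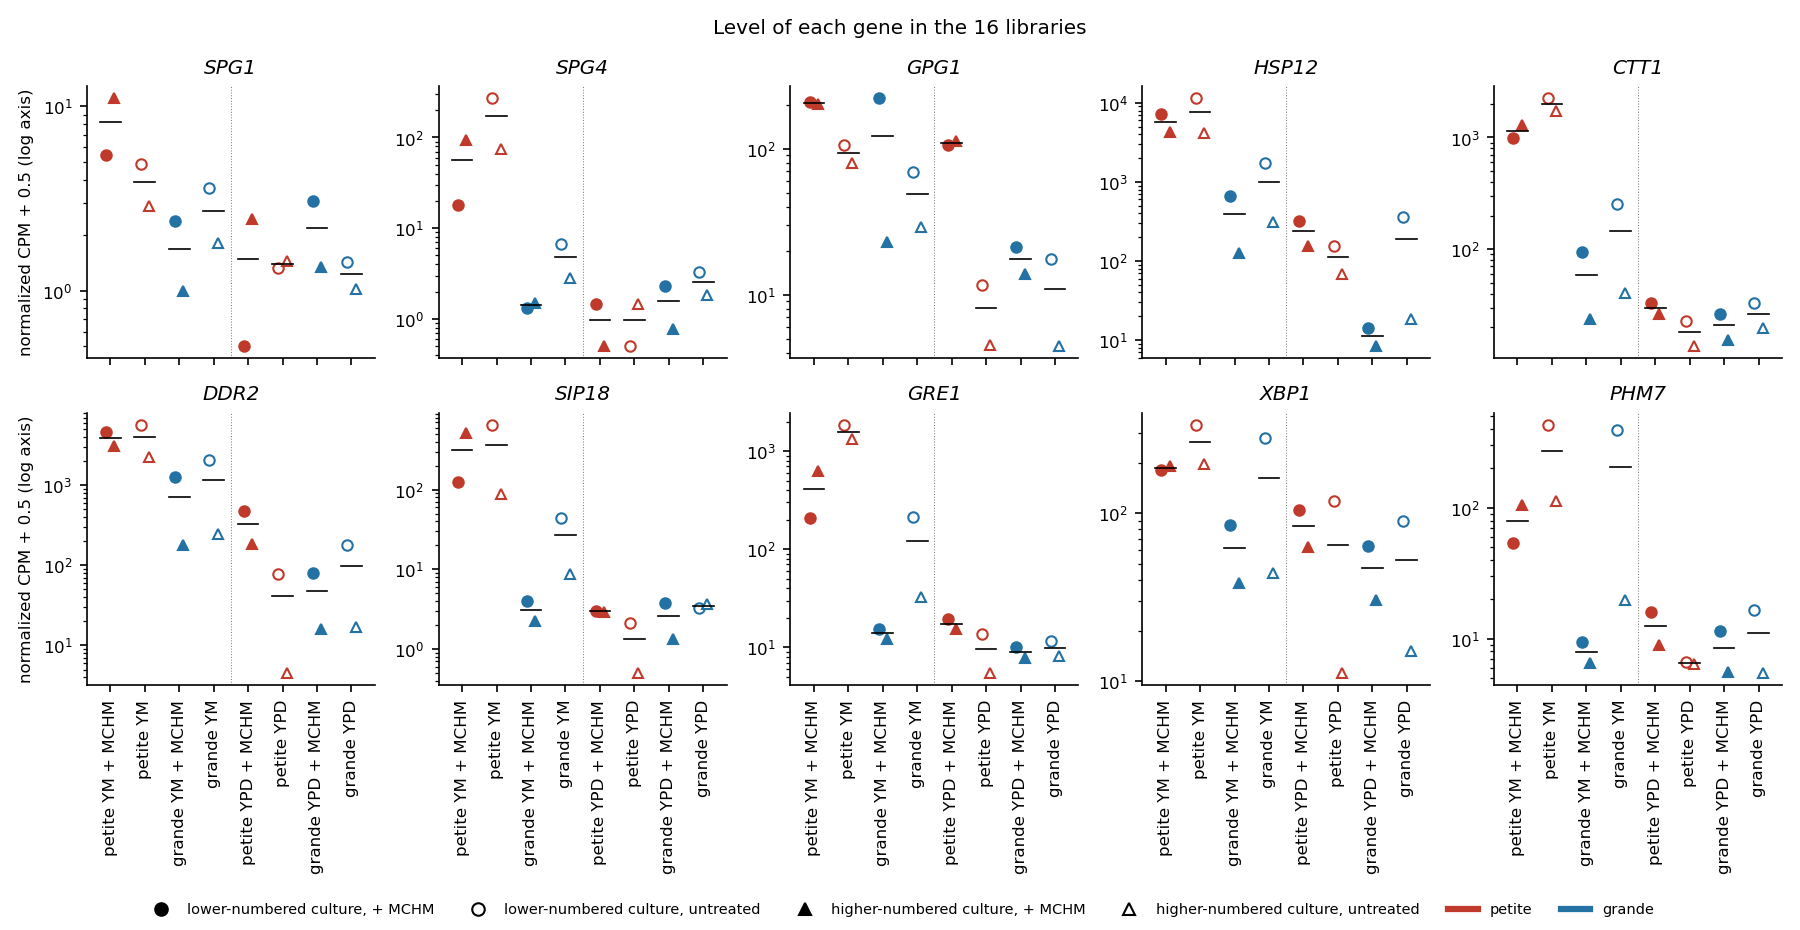
Normalized CPM plus 0.5 on a log axis for each of the 10 genes in 8 groups, with circles for the lower-numbered culture, triangles for the higher-numbered culture, filled symbols for MCHM and open ones for no treatment, and a bar at the mean. For 8 genes the highest mean is untreated petite YM, while GPG1 has its highest means in 3 MCHM groups.

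Whether medium changed the genes in petite yeast was tested with edgeR's quasi-likelihood test, in which a gene was called at a Benjamini-Hochberg adjusted p under 0.05 over all 5856 genes and a change of at least 2-fold. Without MCHM, 8 of the 10 genes rose in YM over YPD, all but SPG1 and XBP1, while 15.2% of all genes tested were called. The groups did not overlap for any of the 10, and their median log2 fold change was 6.37, against -0.0223 over all genes. The share of all genes whose groups did not overlap was not counted, in this or any other comparison. Each count of genes without overlap therefore describes the 10 genes alone. SIP18 rose by a log2 fold change of 9.11 (SE 1.49, edgeR adjusted p = 0.0019), SPG4 by 8.11 (SE 1.22, adjusted p = 0.0013), GRE1 by 7.49 (SE 0.94, adjusted p = 4.6e-04) and CTT1 by 6.83 (SE 0.93, adjusted p = 7.7e-04). These 4 kept their call whichever library was left out. Fitted changes of SIP18 and SPG4 rest on 0 to 4 counts per YPD library and are not bounds. SPG4 was chosen by a comparison that used these same untreated petite YM libraries. Its p, its place among the 8 and its calls with a library left out are therefore not independent of that choice. DDR2 (6.62), HSP12 (6.12), PHM7 (5.48) and GPG1 (3.67) also rose, with edgeR adjusted p = 0.023, 0.011, 0.0094 and 0.020. XBP1 had 2.06 and SPG1 1.87, with adjusted p = 0.20 and 0.24.

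The last 4 calls depended on single libraries. Without the untreated YPD library of culture 10 the log2 fold change was 3.05 for GPG1 (edgeR adjusted p = 0.15), 5.64 for HSP12 (0.094), 5.66 for DDR2 (0.12) and 5.45 for PHM7 (0.079), so 4 of the 8 calls were left. Without the untreated YPD library of culture 2, PHM7 had 5.50 (0.055), and XBP1 was called at 4.62 (0.045). Without the untreated YM library of culture 6, GPG1 had 3.44 (0.062) and DDR2 5.81 (0.064).

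With MCHM in both media, 4 of the 10 genes rose in YM over YPD in petite yeast, where 5.14% of all genes tested were called. They were SPG4 at 7.05 (SE 1.25, edgeR adjusted p = 0.0099), SIP18 at 7.0 (SE 1.26, 0.010), CTT1 at 5.30 (SE 0.86, 0.0074) and GRE1 at 4.62 (SE 0.82, 0.0096). The groups of all 10 genes did not overlap, with a median of 4.07, against 0.0577 over all genes. HSP12 had a log2 fold change of 4.60 (adjusted p = 0.056), DDR2 3.55 (0.19), SPG1 2.83 (0.10), PHM7 2.74 (0.15), XBP1 1.16 (0.55) and GPG1 0.90 (0.56). None of the 4 calls held without the treated YPD library of culture 2 or that of culture 10. SPG4 had 10.75 and 5.85, SIP18 7.02 and 6.96, CTT1 5.45 and 5.12, and GRE1 4.77 and 4.45 without these libraries in turn, with adjusted p between 0.053 and 0.11. Without the treated YM library of culture 14, 1 of the 4 was called, CTT1.

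In grande yeast the same question gave fewer calls. Without MCHM, 1 of the 10 genes rose in YM over YPD, where 2.60% of all genes tested were called: GRE1 had 212 and 32.3 CPM in YM against 11.1 and 7.61 CPM in YPD, which is 3.73 on the log2 scale (SE 0.81, edgeR adjusted p = 0.034). Without the untreated YM library of culture 5 it was 1.90 (adjusted p = 0.21), without either YPD library 4.0 and 3.5 (0.11 and 0.21). PHM7 had 4.35 (SE 1.16, adjusted p = 0.067), DDR2 3.6 (0.24) and CTT1 2.52 (0.11). Without the untreated YM library of culture 5 the 3 were lower, PHM7 at 1.05 (0.65), DDR2 at 1.43 (0.76) and CTT1 at 0.73 (0.70). Without that of culture 13, PHM7 (5.30) and CTT1 (3.32) were called beside GRE1. The median of the 10 genes was 2.48, against -0.00637 over all genes, and 7 of the 10 did not overlap between media. With MCHM in both media none of the 10 was called, where 0.427% of all genes were. An unadjusted p under 0.05 in edgeR's test was found for 3 of the 10. Of all 5856 genes, 371 had one together with a change of at least 2-fold. DESeq2 called 2 of the 10, HSP12 and GPG1, and the share of all genes that it called was not counted. HSP12 had 657 and 126 CPM in YM against 13.5 and 7.88 CPM in YPD, a log2 change of 5.20 (SE 1.39, edgeR adjusted p = 0.12). DDR2 had 3.91 (0.29) and GPG1 2.84 (0.17). Without the treated YM library of culture 5, GPG1 had 0.39 (0.98), DDR2 1.85 (0.95) and HSP12 3.54 (0.59). The median was 0.54, against 0.0275 over all genes, and 4 of the 10 did not overlap.

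Petite and grande yeast in untreated YM are described only, since that comparison chose SPG4. All 10 genes had higher means in petite yeast, with a median log2 difference of 2.35, against 0.0707 over all genes. SPG4 had a difference of 5.35, SIP18 3.82, CTT1 3.77, GRE1 3.70, HSP12 2.94, DDR2 1.76, GPG1 0.93, XBP1 0.71, SPG1 0.62 and PHM7 0.40. Over all genes, 10.7% were called in this comparison, from which nothing is read about the 10. XBP1, PHM7 and SPG1 overlapped between the strains. Grande culture 5 lay near the petite cultures for PHM7 (391.6 CPM) and XBP1 (279 CPM), where grande culture 13 did not (19.5 and 43.5 CPM). Without the untreated library of culture 5 the PHM7 difference was 3.69, and without that of culture 13 it was -0.57. SIP18 had a difference of 1.77 without the untreated library of culture 6.

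With MCHM in YM, 4 of the 10 genes were higher in petite than in grande yeast, where 3.72% of all genes tested were called. These were SIP18, SPG4, GRE1 and CTT1. SIP18 had a log2 fold change of 6.92 (SE 1.25, edgeR adjusted p = 0.016) and SPG4 5.92 (SE 1.12, 0.018). GRE1 had 4.95 (SE 0.83, 0.012) and CTT1 4.31 (SE 0.82, 0.019). The libraries are not those of the untreated comparison, but they come from the same cultures. The p of SPG4 and its place among the 4 are therefore not independent of its choice. HSP12 had 3.88 (adjusted p = 0.10), PHM7 3.41 (0.10), SPG1 2.71 (0.13), DDR2 2.43 (0.36), XBP1 1.61 (0.41) and GPG1 0.75 (0.63). All but GPG1 did not overlap between strains, and the median was 3.64, against -0.0117 over all genes. None was called without the treated library of culture 13 (SIP18 6.54, SPG4 6.11, GRE1 4.82, CTT1 3.65) or of petite culture 14 (5.54, 4.23, 3.95 and 4.10), with edgeR adjusted p between 0.078 and 0.16. Without the treated library of culture 5, CTT1 alone was called. GPG1 had -0.088 without the treated library of culture 13.

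Petite and grande yeast were also compared in YPD. Without MCHM none of the 10 genes was called between petite and grande yeast, and 0% of all genes were. None of the 10 had an unadjusted p under 0.05, and DESeq2 called 0 of them. Their median was -0.64, against 0.00342 over all genes, and 2 of the 10 did not overlap, SPG4 and SIP18, both at 12 counts or fewer in these libraries. With MCHM none of the 10 was called by edgeR, where 1.52% of all genes were. An unadjusted p under 0.05 in edgeR's test was found for 2 of the 10. Of all 5856 genes, 309 had one together with a change of at least 2-fold. DESeq2 called 2 of the 10, HSP12 and GPG1, and the share of all genes that it called was not counted. HSP12 had 321 and 156 CPM in treated petite yeast against 13.5 and 7.88 CPM in treated grande yeast, a log2 fold change of 4.49 (SE 1.35, edgeR adjusted p = 0.18). GPG1 had 106 and 113 CPM against 20.8 and 13.2 CPM, or 2.69 (SE 0.89, adjusted p = 0.22), and DDR2 had 2.80 (0.55). The median was 0.71, against -0.0231 over all genes, and 4 of the 10 did not overlap.

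**Figure D3:**
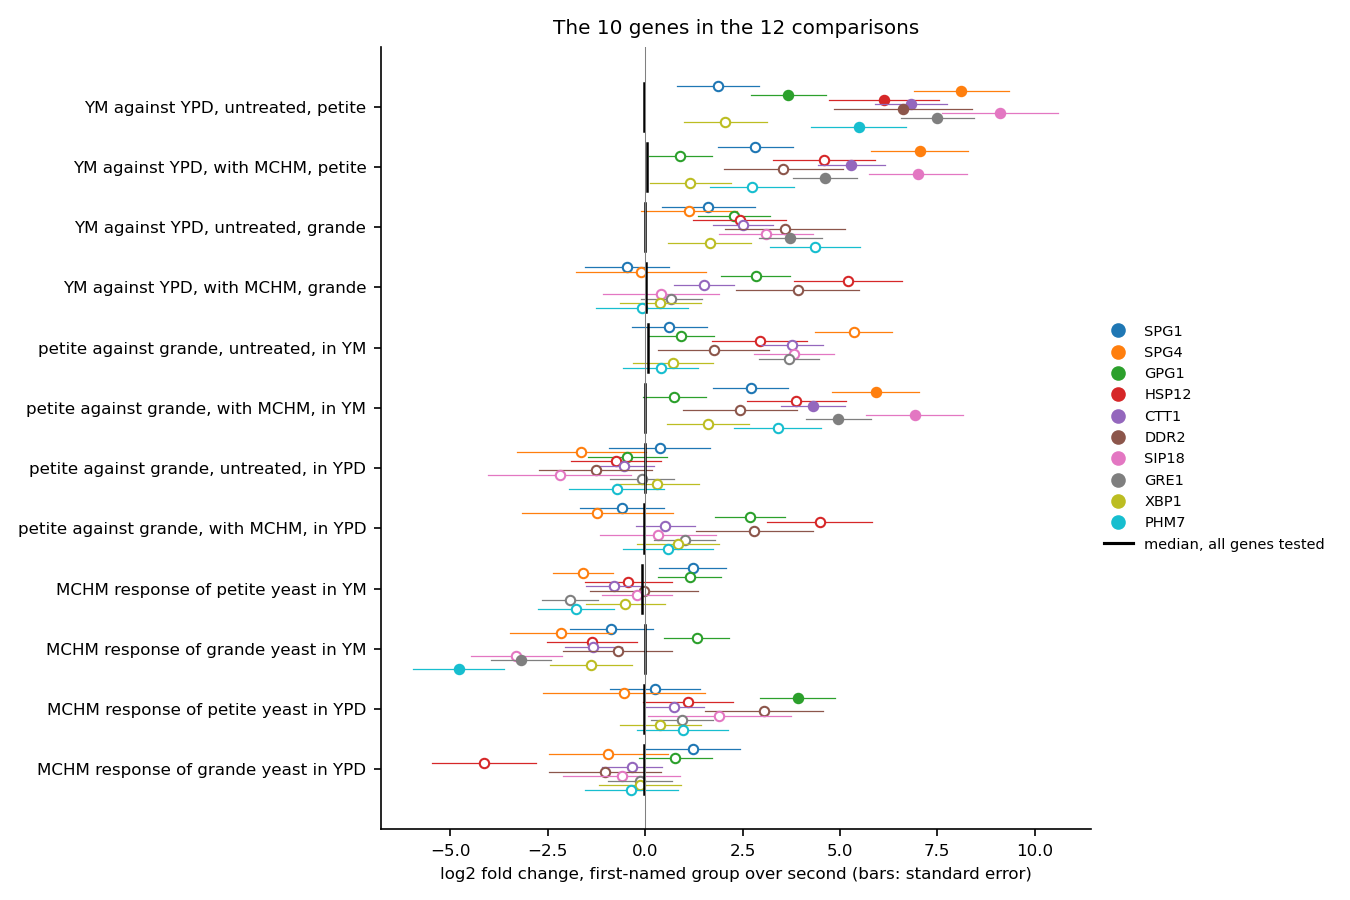
Log2 fold change with its standard error for each of the 10 genes in 12 comparisons, the first-named group over the second, with filled points for genes called by edgeR, left unmarked for the strains in untreated YM, and a black line at the median of all genes tested. The 8 filled points in YM against YPD for untreated petite yeast run from 3.67 for GPG1 to 9.11 for SIP18, and the 2 in the MCHM response of grande yeast in YM lie below 0.

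MCHM treatment was compared with no treatment within each strain and medium. Because each culture was divided, the culture number was also fitted as a replicate block, and its value is given where it changes a call. In petite yeast in YPD, 1 of the 10 genes rose, GPG1, where 9.32% of all genes tested were called. GPG1 had 106 and 113 CPM with MCHM against 11.1 and 4.04 CPM without, a log2 fold change of 3.92 (SE 0.96, edgeR adjusted p = 0.025). Its call was lost with any of the 4 libraries left out, at 3.30 to 4.75 (adjusted p between 0.058 and 0.18). DDR2 had 3.04 (SE 1.52, adjusted p = 0.21), and with the culture as replicate block it was called at 3.85 (adjusted p = 0.0042, over a range of 0.0041 to 0.25 in its alternatives). HSP12 had 321 and 156 CPM with MCHM against 155 and 68.2 CPM without, or 1.10 (0.58). The median was 0.96, against -0.0268 over all genes, and 7 of the 10 did not overlap. With the culture block, 13.4% of all genes were called in this comparison.

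In grande yeast in YPD none of the 10 was called, where 2.19% of all genes were. An unadjusted p under 0.05 in edgeR's test was found for 1 of the 10. Of all 5856 genes, 453 had one together with a change of at least 2-fold. HSP12 had 13.5 and 7.88 CPM with MCHM against 357 and 18.1 CPM without, a log2 fold change of -4.14 (SE 1.33, edgeR adjusted p = 0.13). DESeq2 called it, and with the culture as replicate block it fell by 3.11 on the log2 scale (adjusted p = 0.043, over a range of 0.017 to 0.29 in its alternatives), where 4.23% of all genes were called. Its untreated level was 357 CPM in culture 1 and 18.1 CPM in culture 9, and without the untreated library of culture 1 the log2 fold change was -0.77 (edgeR adjusted p = 0.76). The median of the 10 was -0.34, against -0.0343 over all genes, and HSP12 was the 1 gene that did not overlap.

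In grande yeast in YM, GRE1 and PHM7 fell with MCHM, 2 of the 10 genes, where 5.07% of all genes tested were called. GRE1 had 15.1 and 11.8 CPM with MCHM against 212 and 32.3 CPM without, a log2 fold change of -3.19 (SE 0.78, edgeR adjusted p = 0.036). PHM7 had 8.87 and 6.0 CPM against 391.6 and 19.5 CPM, or -4.78 (SE 1.17, 0.036). SIP18 had -3.30 (SE 1.18, 0.12) and CTT1 -1.33 (0.32). With the culture as replicate block CTT1 fell by 1.13 on the log2 scale (adjusted p = 0.036, over a range of 0.036 to 0.60 in its alternatives), where 7.43% of all genes were called. The 2 calls rested on the untreated library of culture 5: without it GRE1 had -1.34 (0.25), PHM7 -1.46 (0.35) and CTT1 0.47 (0.74). Without the treated library of culture 5 or of culture 13, GRE1 had -3.39 and -3.03 (0.19 and 0.14) and PHM7 -5.10 and -4.53 (0.21 and 0.15). Of the 10 genes, 9 had a negative log2 fold change, GPG1 being the exception, with a median of -1.38, against 0.00164 over all genes, and 4 did not overlap.

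In petite yeast in YM none of the 10 was called with MCHM, where 0.546% of all genes were, and DESeq2 called 0 of the 10. An unadjusted p under 0.05 in edgeR's test was found for 1 of the 10. Of all 5856 genes, 196 had one together with a change of at least 2-fold. GRE1 had 207 and 625 CPM with MCHM against 1843 and 1321 CPM without, a log2 fold change of -1.93 (SE 0.71, edgeR adjusted p = 0.46), and SPG4 had -1.60 (0.64). The cultures disagreed for SIP18, which was 123 CPM with MCHM against 647 CPM without in culture 6, and 514 CPM against 89.1 CPM in culture 14. SPG4 moved the same way in culture 6, at 17.7 against 269 CPM, and hardly in culture 14, at 94.2 against 74.1 CPM. The median was -0.47, against -0.0698 over all genes, and 6 of the 10 did not overlap.

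**Figure D4:**
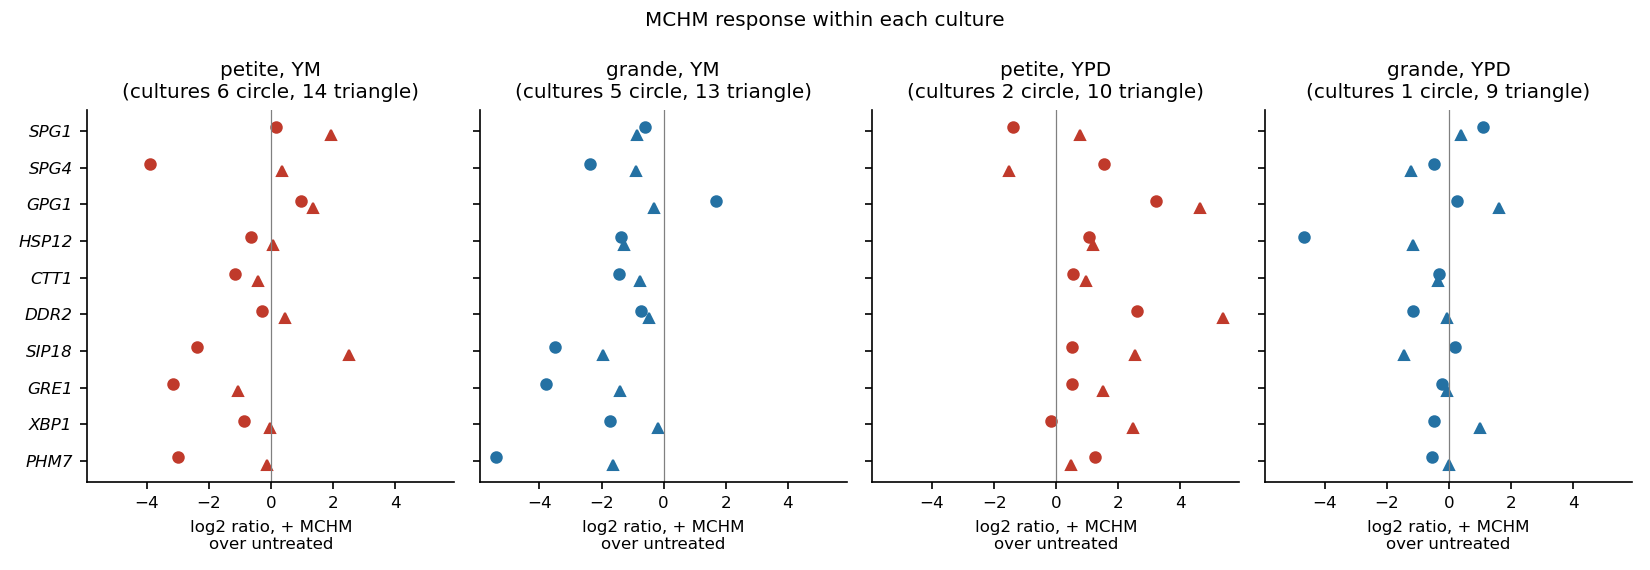
Log2 ratio of the treated over the untreated library of the same culture, with 0.5 CPM added, for the 10 genes in each strain and medium, with circles for the lower-numbered culture and triangles for the higher-numbered one. In grande YM, 9 genes lie below 0 in both cultures, while in petite YM the cultures of SIP18 lie at -2.39 and 2.52.

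Differences between these effects were tested directly, and apart from 1 that is only described. The strain difference in YM less that in YPD, untreated, was 6.99 for SPG4, 6.01 for SIP18 and 4.31 for CTT1. It is given with no p, since it is built on the comparison that chose SPG4. There edgeR called 0 of the 10 genes and 0.529% of all genes, which describes the fit only. Of the 10 genes, edgeR called none in any of the other 4 differences. The MCHM response of petite less that of grande yeast in YPD was 5.23 for HSP12 (SE 1.75, edgeR adjusted p = 0.87), 4.06 for DDR2 (1.00) and 3.15 for GPG1 (1.00). Without the untreated grande library of culture 1 it was 1.87 for HSP12 and 1.83 for GPG1 (1.00 each). In that difference 2 of the 10 had an unadjusted p under 0.05 in edgeR's test, and edgeR called 0% of all genes. Of all 5856 genes, 175 had such a p together with a difference of at least 2-fold. DESeq2 called HSP12 there. The same difference in YM had 0 of the 10 at an unadjusted p under 0.05, 0 by DESeq2 and 0.0171% of all genes called.

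The MCHM response in YM less that in YPD was -4.43 for PHM7 in grande yeast (SE 1.63, edgeR adjusted p = 0.50). DESeq2 called 0 of the 10, and edgeR called 0% of all genes. An unadjusted p under 0.05 in edgeR's test was found for 2 of the 10. Of all 5856 genes, 313 had one together with a difference of at least 2-fold. In petite yeast it was -2.88 for GRE1 (SE 1.06, edgeR adjusted p = 0.27) and -2.78 for GPG1 (SE 1.23, 0.35), with 0.461% of all genes called. An unadjusted p under 0.05 in edgeR's test was found for 2 of the 10. Of all 5856 genes, 573 had one together with a difference of at least 2-fold. DESeq2 called GRE1 there. DDR2 had -3.07 (SE 2.02, adjusted p = 0.55), and with the culture as replicate block it was called at -3.77 (adjusted p = 0.047, over a range of 0.047 to 0.60 in its alternatives), where 1.84% of all genes were called.

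Other genes of the same programme were counted in lists drawn from textbook roles, with earlier results of these data known. Of 24 further general stress genes, 10 rose in untreated petite yeast in YM over YPD, with a median log2 fold change of 2.18, against -0.0223 over all genes, of which 15.2% were called. The count was 3 without the untreated YPD library of culture 10 and 6 without the untreated YM library of culture 6. They included MSC1 at 5.26 (SE 1.2, edgeR adjusted p = 0.011), TKL2, a transketolase, at 5.25 (SE 0.64, 3.6e-04) and SOL4, a 6-phosphogluconolactonase, at 4.75 (SE 1.41, 0.034). TKL2 had 753 and 441 CPM in YM against 18.1 and 13.5 CPM in YPD. With MCHM in both media 3 rose in petite yeast, TKL2 at 4.08 (0.0052), ALD3, an aldehyde dehydrogenase, at 4.07 (0.038) and RTN2, a reticulon, at 3.66 (0.015), where 5.14% of all genes were called. That count was 0 without the treated YPD library of culture 2, and 1 or 2 without any of the other 3. TKL2 (3.73, adjusted p = 0.010) and RTN2 (3.70, 0.021) were also higher in petite than in grande yeast in YM with MCHM, where 3.72% of all genes were called. Neither was called without the treated library of culture 5, 13 or 14. Without a replicate block, edgeR called none of the 24 lower in any comparison, and none at all in the 4 MCHM responses. Some log2 fold changes were negative, down to -2.01 between petite and grande yeast in untreated YPD.

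Of 15 further stationary-phase genes, 9 rose in untreated petite yeast in YM over YPD, with a median of 2.93, and 5 did without the untreated YPD library of culture 10. Over all genes, 15.2% were called in that comparison. FMP16 had 1015 and 553 CPM in YM against 8.21 and 1.66 CPM in YPD (log2 fold change 7.42, SE 1.31, edgeR adjusted p = 0.0028). SPS100, a spore wall gene, rose by 6.56 (SE 0.72, 2.4e-04) and FMP45 by 4.72 (SE 0.71, 0.0013). With MCHM in both media 4 rose, among them SPS100 (5.05, adjusted p = 0.0030), FMP16 (4.10, 0.044) and FMP45 (2.88, 0.023), and 2 did with any 1 of these libraries left out. Over all genes, 5.14% were called between media in petite yeast with MCHM. In grande yeast without MCHM, 1 rose in YM, SPS100 at 3.40 (0.018), where 2.60% of all genes were called. It was not called without the untreated YM library of culture 5 or either YPD library. With MCHM in YM, 4 were higher in petite than in grande yeast, where 3.72% of all genes were called. Among the 4 were SPS100 (3.68, edgeR adjusted p = 0.012), FMP45 (3.66, 0.016) and HBT1 (2.36, 0.0032). That count was 1 without the treated library of culture 13 or 14 and 2 without that of culture 5. SPG5, a stationary-phase gene that acts on the proteasome, was the 1 of 15 whose level rose in petite YPD cultures given MCHM, at 1.09 (0.039), where 9.32% of all genes were called. Its call was lost without either untreated library or the treated library of culture 2. With the culture as replicate block, 7 of the 24 general stress genes and 7 of the 15 stationary-phase genes were called in that comparison, where the block called 13.4% of all genes.

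Transcripts of 21 regulators of the programme were also counted. By edgeR none was called between petite and grande yeast in any of the 4 comparisons. MSN2 had 126.5 and 193 CPM in untreated petite YM against 60.8 and 68.9 CPM in untreated petite YPD, a log2 fold change of 1.30 (SE 0.31, edgeR adjusted p = 0.014), where 15.2% of all genes were called. MSN4 had 484 and 444 CPM in untreated petite YM, against 315 and 40.4 CPM in untreated petite YPD (1.39, SE 0.88, adjusted p = 0.29). TPK3, a catalytic subunit of protein kinase A named after its values were seen, fell by 1.45 on the log2 scale in the same comparison (0.024), and by 1.46 with MCHM in petite yeast in YPD (0.035), where 9.32% of all genes were called. MSN2 and TPK3 were the 2 regulators called in the first comparison, and neither was called without the untreated YM library of culture 14 or when only the libraries compared were fitted. The MCHM call of TPK3 was lost in that fit too, with library size alone, and in 3 of the 4 fits without 1 library. GPR1, the glucose-sensing receptor, and GPA2, its G protein alpha subunit, were not called in any of the 12 comparisons. These include the MCHM response of petite yeast in YPD, where GPG1 was called and 9.32% of all genes were. That call of GPG1 was lost with any of the 4 libraries left out. GPR1 had 60.6 and 75.4 CPM with MCHM against 50.5 and 72.2 CPM without in petite yeast in YPD, and GPA2 had 111 and 62.1 CPM against 80.9 and 46.8 CPM.

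The genes whose pattern was most like the mean of the 10 were ranked by Pearson correlation over the 8 group means on the log2 scale, over the 5185 tested genes that averaged 10 CPM or more. They were YCL048W-A (r = 0.996), MSC1 (0.991), HXT5, a hexose transporter (0.991), DAL2, an allantoicase (0.990), and PUT4, a proline permease (0.989). YCL048W-A had 1279 and 803 CPM with MCHM and 2695 and 1099 CPM without in petite yeast in YM. In grande yeast in YM it had 57.5 and 7.25 CPM with MCHM, and 256 and 53.1 CPM without, and in YPD at most 24.9 CPM. HXT5 had 2711 and 2322 CPM in untreated petite YM, against 304 and 40.9 CPM in untreated grande YM.

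The difference between the 2 cultures of a group was itself shared by the genes. The lower-numbered culture was higher for 10 of the 10 genes in both untreated YM groups and in treated grande YPD, for 9 in treated grande YM and in untreated grande YPD, for 8 in both petite YPD groups, and for 3 in treated petite YM. HSP12 and DDR2 were higher in the lower-numbered culture in all 8 groups. Over all genes tested the median log2 ratio between the cultures lay between -0.0282 and 0.0350. What the 2 sets of cultures differed in is not given in the sources used here.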

How the data were processed

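The 16 libraries were unstranded paired-end cDNA libraries, sequenced on an Illumina MiSeq. The authors deposited whole-number read counts per gene, made with Rsubread; the submitters' processing notes name CASAVA 1.7, TopHat2 2.0.12, DESeq2 1.8.1 and the builds R64 and sacCer3, with no role or order. A second deposited table holds the authors' own comparisons and was not used. Column names give group and culture but no replicate number of the labels. Counts were scaled by TMM, filtered with filterByExpr (minimum count 10, minimum total 15) and fitted with edgeR 4.0.16 in R 4.3.3 as 8 group means over all 16 libraries (prior count 0.125), and tested by its quasi-likelihood test, with p adjusted by Benjamini-Hochberg over all genes. The common biological coefficient of variation was 29.5%. SE is the log2 fold change over the square root of F. Lone libraries in leave-one-out fits are assumed to vary like the other groups. DESeq2 1.42.0 was an alternative, and the share of all genes that it called was not counted. The fits were tested on simulated data.

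The labels say that each culture was divided into the treated and the untreated part, which pairs these libraries. Their deviations from the group means correlated at 0.334, 0.523, 0.340 and 0.479 in grande YM, grande YPD, petite YM and petite YPD. Over 28 pairs of groups among the lower-numbered cultures, with these included, the median was 0.455 and the range 0.0257 to 0.735. The values in grande YM and petite YM lie below that median. The main fit has no term for the culture, so it takes the treated and untreated parts of a culture as independent libraries. Its p-values measure the spread between libraries within groups, each group with 2 cultures, and do not use the pairing.

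The members and lists were chosen with earlier results of these data known. Genes named are the members, HOR7 and CTA1, the regulators MSN2, MSN4, GPR1 and GPA2, up to 3 called genes per list and comparison with the largest change, and the 5 genes most like the mean of the members. Sequences and coordinates are from the RefSeq R64 genome, whose annotation held 6025 of the 6717 identifiers. The last 100 bases before a start codon are not printed.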

Additional observations from a re-analysis of the deposited data

Results flagged for a closer look

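HBT1, a stationary-phase gene, was singled out because the difference between petite and grande yeast differed between media without MCHM. edgeR called the strain difference in YM less that in YPD, at 3.43 on the log2 scale (SE 0.41). It is given with no p, since it is built on the comparison that chose SPG4. In YM it had 541 and 412 CPM in untreated petite yeast, against 79.2 and 43.2 CPM in untreated grande yeast. The call was lost without either untreated petite YPD library and when only the libraries compared were fitted.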

How the results depend on the processing

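Counts of the 10 genes called kept within 1.5 times of the main value under median-of-ratios size factors and with no filter in all 17 comparisons and differences. With library size alone the count in untreated grande yeast in YM over YPD was 0. For the strain difference between media the main count was 0. DESeq2 called 1 for MCHM in grande YPD, 2 for petite over grande with MCHM in YPD, 3 and 2 for YM over YPD in grande yeast without and with MCHM, 4 for the strain difference between media, 1 for the strain difference in the MCHM response in YPD, and 1 for the medium difference in the petite response. When the fit held only the libraries compared, counts were 0 for MCHM in grande YM, 0 for the strains in untreated YM, 2 for the strains with MCHM in YPD, 0 for YM over YPD in untreated grande yeast and 7 in treated petite yeast. Without both libraries of culture 5, chosen after seeing the data, counts were 0 for MCHM in grande YM, 2 for the strains with MCHM in YM, 0 for YM over YPD in untreated grande yeast and 1 for the strain difference between media.

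With the culture as replicate block, 1 gene was called for MCHM in grande YPD, 2 in petite YPD, 3 in grande YM and 1 for the medium difference in the petite response, and no other call of the 10 genes changed. With the series of the culture number as replicate block, counts were 1 for MCHM in grande YPD, 2 in petite YPD, 3 and 7 for the strains with MCHM in YPD and YM, 5 and 2 for YM over YPD in grande yeast without and with MCHM, 8 in treated petite yeast and 1 for the strain difference between media. What the libraries of a series share beyond a place in the numbering is not given. Over 28 pairs of groups their deviations correlated at a median of 0.455, with a lowest value of 0.0257. These pairs include the treated and untreated parts of the same culture. Among the alternatives, the share of all genes called was counted for the culture block alone. Counts of the 10 genes under the other alternatives, and in leave-one-out fits, thus cannot be set against such a share.

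Leaving out 1 library at a time gave 0 to 0 calls for MCHM in petite YPD, 0 to 2 in grande YM, 0 to 5 for the strains in untreated YM, 0 to 4 with MCHM in YM, 0 to 3 for YM over YPD in untreated grande yeast, 4 to 8 in untreated and 0 to 4 in treated petite yeast, and 0 to 2 for the strain difference between media. Directions turned in single-library fits for CTT1 with MCHM in grande YM (-2.67 to 0.47), XBP1 (-0.12 to 2.49) and PHM7 (-0.86 to 3.69) between the strains in untreated YM, and GPG1 between the strains with MCHM in YM (-0.088 to 3.21). The cause was not tested. Counts for the strains in untreated YM and for the strain difference between media describe the fits only, since that comparison chose SPG4. SPG1, SPG4 and SIP18 had at most 12 counts per YPD library, which limits the precision of their fold changes.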

Other observations

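In pairs of responses that differ in strain alone or in medium alone, both cultures of HSP12, CTT1, DDR2, GRE1, SPG1 and PHM7 moved up with MCHM in 1 response and down in the other. The share of all genes with such a pattern was not counted. Some moves were small, as for CTT1 in grande yeast in YPD (-0.31 and -0.35). SPG1 had at most 8 counts in any grande library. HSP12 had within-culture log2 ratios of 1.05 and 1.19 in petite yeast in YPD, against -4.68 and -1.15 in grande yeast in YPD. DDR2 had 2.61 and 5.36 in petite yeast in YPD, against -1.15 and -0.05 in grande yeast in YPD. GRE1 had -3.15 and -1.08 in petite yeast in YM and 0.51 and 1.5 in petite yeast in YPD. PHM7 had -2.99 and -0.12 in petite yeast in YM and 1.26 and 0.48 in petite yeast in YPD. None of these differences was called by edgeR's quasi-likelihood test.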
